A study of Mus musculus with 16 samples.

Results

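Rnaset2a and Rnaset2b are the mouse copies of the gene for RNase T2, and their RNA was followed here in the liver and kidney of mice kept under a fixed or a repeatedly advanced light cycle. They are 2 of the 32989 genes in each organ's table, and both were found by their symbol, which has 1 row each. The pair was chosen by its difference between conditions in these kidneys. The kidney values are therefore given as a description, with no test, while the liver values of the same mice were tested. RNA-seq of poly(A)-selected RNA was carried out on male C57BL/6J mice, with 4 mice per condition and the same 8 mice in both organs, which gave 16 libraries. L63, L65, L86 and L104 were the LD mice, with light from 8:00 to 20:00. A75, A91, A94 and A115 were the ADV mice, whose light cycle was advanced by 8 hours every 4 days. Both conditions lasted 85 weeks, the mice were then aged 97 weeks, and no genetic change or drug is named for either group. Each library came from 1 mouse.

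RNase T2 is a ribonuclease of acidic compartments that cuts single-stranded RNA inside lysosomes and is also secreted. It is found across plants, fungi and animals, and phagocytes use it to degrade the RNA of engulfed cells. The fragments it makes are among the ligands of the endosomal Toll-like receptors for RNA, and loss of the human gene causes a brain white matter disease of infancy. In the liver and kidney, lysosomal RNA turnover takes place in parenchymal cells as well as in macrophages.

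Rnaset2b (uc008aic.1) lies on chromosome 17 of mm10 at chr17:6978860-6998193 on the plus strand, and Rnaset2a (uc008aiy.2) at chr17:8128598-8147788 on the minus strand, 1130 kb away. Each has 9 exons. Their coding sequences of 780 bases with the stop codon differed at 0 positions in GENCODE M21 (GRCm38), so that both genes encode the same protein. Its first 150 bases are printed to show the sequence that both genes share, with the start codon in capitals.
Rnaset2a and Rnaset2b, start of the coding sequence: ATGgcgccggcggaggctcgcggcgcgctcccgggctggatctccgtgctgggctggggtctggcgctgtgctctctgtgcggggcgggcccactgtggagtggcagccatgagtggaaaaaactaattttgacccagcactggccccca

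Over the 962 bases common to both counted models, 2 bases differed, both in untranslated exon sequence. They are printed with 14 bases on either side, from GENCODE M21 transcripts, with the differing base in capitals. The first lies 11 bases before the start codon, at chr17:6978973-6979001 on the plus strand for Rnaset2b and chr17:8147691-8147719 on the minus strand for Rnaset2a. It is C15G, with the base of Rnaset2b first and positions counted from 1 at the 5′ end of the stretch.
Rnaset2b, before the start codon: agccttcggagcccCgggcagtgcgatgg
Rnaset2a, before the start codon: agccttcggagcccGgggcagtgcgatgg
The other lies 30 bases after the stop codon, at chr17:6998114-6998142 on the plus strand for Rnaset2b and chr17:8128642-8128670 on the minus strand for Rnaset2a. It is T15C by the same count.
Rnaset2b, after the stop codon: aatattttgtgtccTacaaagtaagaaaa
Rnaset2a, after the stop codon: aatattttgtgtccCacaaagtaagaaaa
Of all stretches of 100 bases, the shorter of the read lengths used, 166 of 914 (18.2%) in the Rnaset2b model and 143 of 863 (16.6%) in the Rnaset2a model held a differing base. For fragments of 300 bases with a read of 100 bases at each end, a length assumed here, these shares were 23.2% and 21.6%. The authors removed reads with a mapping quality under 10, and a read that fits both genes equally well has a low one. Most fragments of either gene therefore carry no base that assigns them, and after that step the counted fragments would mainly be those over the differing bases. Where the counted fragments lay was not examined, since reads were not analysed here. The sum of both was followed beside each gene. The coding stretches are also part of the overlapping genes Gm49673 and Gm49721 of GENCODE, which run on from Rnaset2a and Rnaset2b.

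**Figure D1:**
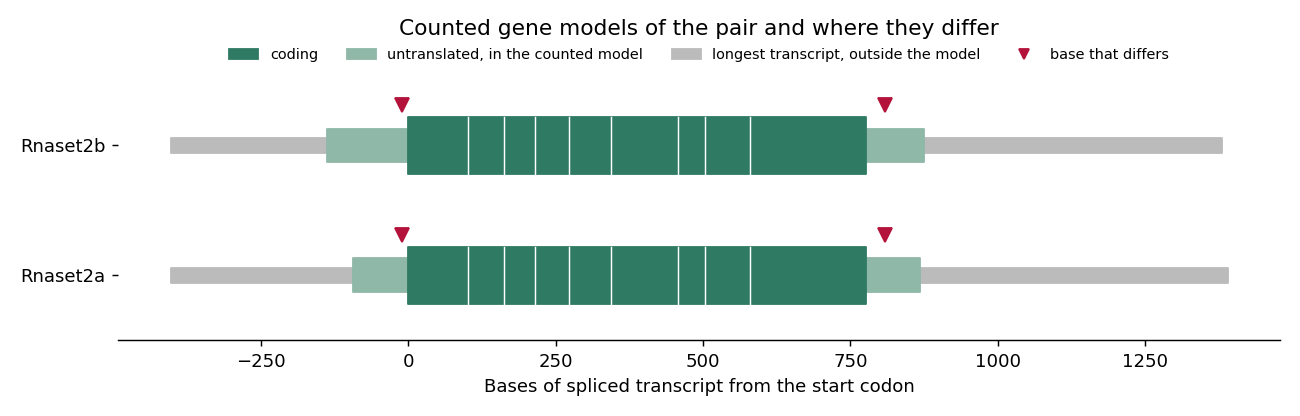
Spliced transcripts of Rnaset2b and Rnaset2a, drawn to scale in bases from the start codon, with exon borders of the coding part as white lines. Dark green is coding, light green is untranslated sequence inside the counted model, and grey is the rest of the longest transcript. The triangles mark the 2 differing bases, 1 on each side of the coding sequence.

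The RefSeq promoters (GRCm38.p6, from 250 bases before to 50 bases after the annotated start) are printed to show how alike they are. They lie at chr17:6978610-6978909 on the plus strand for Rnaset2b and chr17:8147738-8148037 on the minus strand for Rnaset2a. The annotated starts are offset by 45 bases, and over the 255 bases in common 1 base differs (99.61% identity). This base, in capitals, is G147A, with Rnaset2b first and counted from 1 at the 5′ end of the printed Rnaset2b promoter.
Rnaset2b promoter: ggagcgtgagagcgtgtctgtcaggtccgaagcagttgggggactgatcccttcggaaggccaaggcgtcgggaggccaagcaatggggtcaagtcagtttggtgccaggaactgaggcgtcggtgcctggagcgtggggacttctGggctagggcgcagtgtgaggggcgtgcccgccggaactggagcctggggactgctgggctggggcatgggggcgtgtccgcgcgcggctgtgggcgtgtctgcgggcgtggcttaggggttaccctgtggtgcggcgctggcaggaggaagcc
Rnaset2a promoter: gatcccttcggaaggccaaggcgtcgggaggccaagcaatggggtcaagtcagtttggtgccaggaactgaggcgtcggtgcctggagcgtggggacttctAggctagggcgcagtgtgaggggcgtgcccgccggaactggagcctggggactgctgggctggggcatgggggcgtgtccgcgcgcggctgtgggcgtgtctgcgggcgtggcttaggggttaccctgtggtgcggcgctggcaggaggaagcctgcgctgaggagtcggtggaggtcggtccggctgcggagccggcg
The E-box CACGTG, the CCAAT box, the GC box GGGCGG, the TATA box TATAAA and the motif CACCC had 0 matches on either strand in both windows. Of 32851 RefSeq promoters of the same length, 7.15%, 37.41%, 35.66%, 13.62% and 57.52% held them, in that order. No match says only that these letters are not in these windows. The part of the promoters in the levels of the pair was not tested. RefSeq lists 2 starts for Rnaset2a, and the window closest to that of Rnaset2b was used.

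Between 15688495 and 18043306 fragments lay on genes in the kidney libraries and between 21092501 and 24285055 in the liver libraries. Mitochondrial genes took 30.9% of the fragments in the kidney of A115, against 8.63% to 16.5% in the other 7 kidneys and 5.41% to 8.80% in the livers. Markers of the organs were as labelled, with 8 proximal tubule genes summing to between 20096 and 46648 FPKM in the kidneys and at most 0.128 FPKM in the livers. The 8 hepatocyte genes summed to between 59157 and 72801 FPKM in the livers and between 868 and 1237 FPKM in the kidneys, where Cps1 was listed at 0. Between 76.5 and 164 fragments of the pair stood behind the values of an LD kidney, between 250 and 711.5 behind an ADV kidney, and between 640.5 and 1011.5 behind a liver. The sequencing was shared by a pair of providers, and which library came from which is not given in the sources used here, so that a sequencing batch cannot be told apart from the conditions.

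In the kidney, both genes were low in the LD-conditioned mice and several-fold higher in the ADV-conditioned mice. The level of Rnaset2a was 1.89 FPKM in L63, 2.45 in L65, 4.22 in L86 and 4.28 in L104. In the ADV kidneys it was 11.9 FPKM in A75, 14.3 in A91, 19.8 in A94, with 8.99 in A115. All ADV kidneys stood above all LD kidneys, and the lowest of them was A115. The means were 3.21 ± 1.22 FPKM (SD, n = 4) and 13.7 ± 4.6 FPKM (SD, n = 4), a ratio of 4.28 and a difference of 2.08 on the log2(FPKM + 0.1) scale (standard error 0.34). This log2 difference was larger than that of 99.9% of the 14452 kidney genes tested. Of those genes 0.962% had every ADV kidney above every LD kidney, and since the contrast chose Rnaset2a, nothing is read from its being one of them. By the same rule 1.83% of genes had every ADV kidney below every LD kidney.

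Rnaset2b showed the same pattern with more overlap. Its level was 2.13 FPKM in L63, 3.55 in L65, 4.32 in L86 and 4.94 in L104. In the ADV kidneys it was 8.66 FPKM in A75, 14.6 in A91, 17.1 in A94, with 4.47 in A115. The kidney of A115 lay within the range of the LD kidneys, and the other 3 ADV kidneys lay above it. The means were 3.74 ± 1.21 FPKM (SD, n = 4) in the LD and 11.2 ± 5.73 FPKM (SD, n = 4) in the ADV condition, a ratio of 3.0 and a log2 difference of 1.45 (standard error 0.45). With the mitochondrial genes taken out of the library total, Rnaset2b in A115 was 6.47 FPKM and the highest LD kidney was 5.80 FPKM, and the groups no longer overlapped.

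The sum of both genes was 4.02, 6.00, 8.54 and 9.22 FPKM in L63, L65, L86 and L104. It was 20.5 FPKM in A75, 28.8 in A91, 37.0 in A94, with 13.5 in A115. The order of the mice was the same for both genes except for A115 and L104, with L63 lowest and A94 highest. The means were 6.95 ± 2.39 FPKM (SD, n = 4) and 24.9 ± 10.2 FPKM (SD, n = 4), a ratio of 3.59 and a log2 difference of 1.80 (standard error 0.37). After scaling by the median ratio the sum was between 4.07 and 9.21 FPKM in the LD and between 17.1 and 31 FPKM in the ADV kidneys, where A75 in place of A115 was the lowest. Without A115 the log2 differences were 2.27 for Rnaset2a, 1.83 for Rnaset2b and 2.07 for the sum. In whole organs, a change in the number of cells that express the pair and a change in its RNA per cell cannot be told apart. With limma, 0 of the 14452 kidney genes had an adjusted p under 0.05 (0%), 448 had an unadjusted p under 0.05 (3.1%), and limma-voom gave 0 and 410. Without A115 the shares were 18.8% and 37.1% of 14475 genes.

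**Figure D2:**
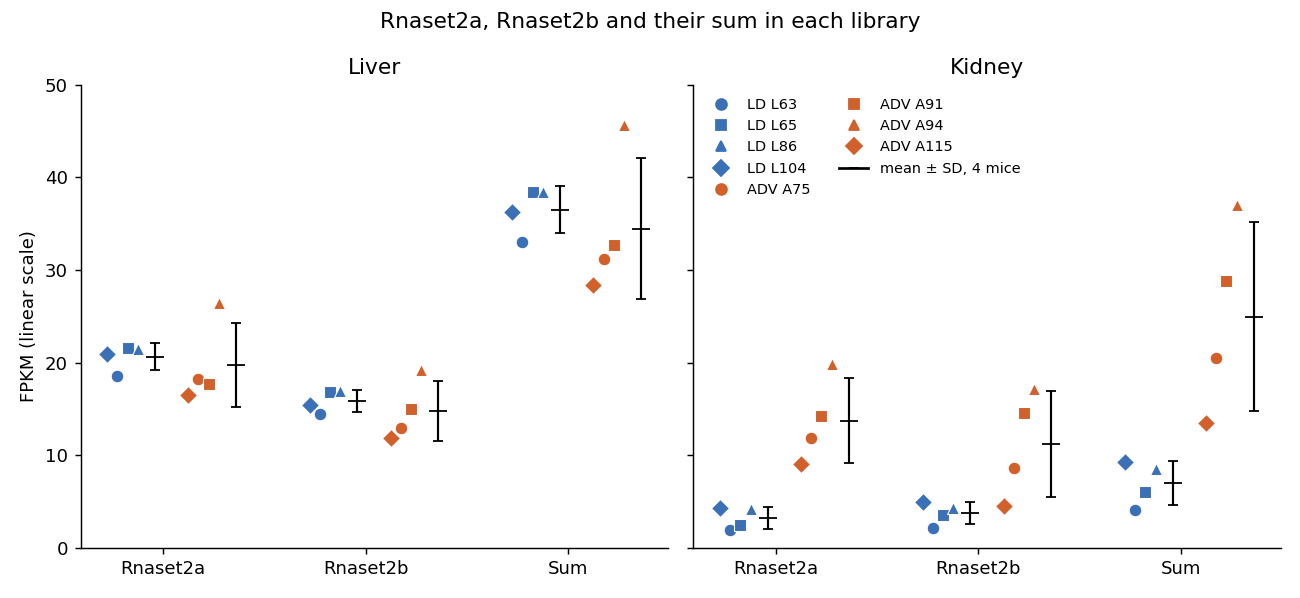
FPKM of Rnaset2a, Rnaset2b and their sum on a linear axis, with 1 point per library, blue for LD and orange for ADV mice, and the mean ± SD of 4 mice in black. The liver groups overlap, while in the kidney the sum lies between 4.02 and 9.22 FPKM in the LD mice and between 13.5 and 37.0 FPKM in the ADV mice.

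In the liver, neither gene differed between the conditions beyond the spread of the mice. Rnaset2a was at 18.6 FPKM in L63, 21.6 in L65, 21.5 in L86 and 20.9 in L104. In the ADV livers it was at 18.3 FPKM in A75, 17.7 in A91, 26.5 in A94, with 16.5 in A115. A94 was the highest of all livers, the other 3 ADV livers were below all LD livers, and the groups overlapped through A94. By median-ratio scaling A94 was at 21.9 FPKM and within the LD range. The means were 20.6 ± 1.42 FPKM (SD, n = 4) and 19.7 ± 4.55 FPKM (SD, n = 4), a log2 difference of −0.09 (standard error 0.15, limma adjusted p = 0.808, two-sided exact permutation p = 0.629). The 95% interval of the difference ran from −0.42 to 0.24, a ratio between 0.747 and 1.18.

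Rnaset2b was at 14.4 FPKM in L63, 16.8 in L65, 16.9 in L86 and 15.4 in L104. In the ADV livers it was at 13 FPKM in A75, 15.0 in A91, 19.2 in A94, with 11.9 in A115. A94 was again the highest liver, A75 and A115 were below all LD livers, and A91 was within the LD range. The means were 15.9 ± 1.18 FPKM (SD, n = 4) and 14.8 ± 3.23 FPKM (SD, n = 4), a log2 difference of −0.13 (standard error 0.15, limma adjusted p = 0.711, two-sided exact permutation p = 0.486) with a 95% interval from −0.46 to 0.21.

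The sum in the liver was 33.0 FPKM in L63, 38.4 in L65, 38.4 in L86 and 36.2 in L104, and in the ADV livers 31.2 FPKM in A75, 32.7 in A91, 45.6 in A94, with 28.3 in A115. The log2 difference of the sum was −0.10 (standard error 0.14, limma adjusted p = 0.761, two-sided exact permutation p = 0.60), with an interval from −0.43 to 0.22. The upper bound is a ratio of 1.17, and the kidney log2 difference of the sum is a ratio of 3.49 on the same scale. The difference in the effect between the organs was not tested, because the kidney values chose the pair. Of the 2 genes, 0 had an adjusted p under 0.05 in the liver, where 1 of 12835 genes (0.00779%) did, and 0 had an unadjusted p under 0.05, where 11.8% of genes did. Every ADV liver was above every LD liver for 6.94% of genes and below for 1.89%, and for 0 of the pair in either direction. Without A94 the log2 differences were −0.24 for Rnaset2a, −0.26 for Rnaset2b and −0.25 for the sum, with limma adjusted p of 0.29, 0.323 and 0.283, where 1 of 12553 genes (0.00797%) passed and 14.5% had an unadjusted p under 0.05.

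**Figure D3:**
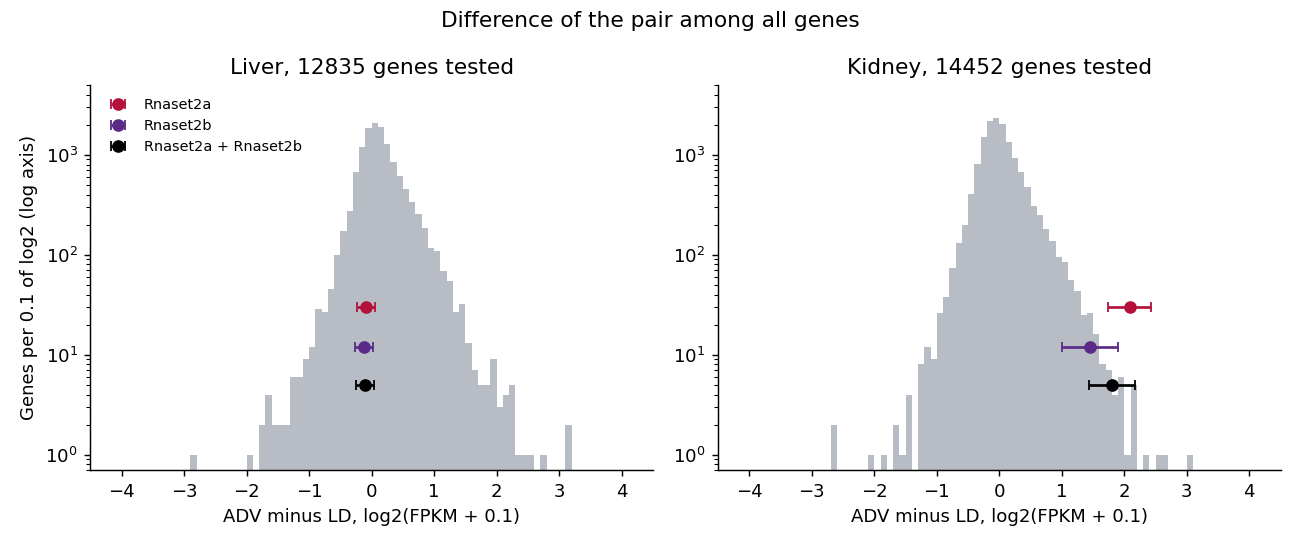
Histogram of the ADV minus LD difference of all tested genes on the log2(FPKM + 0.1) scale, in bins of 0.1 with the number of genes on a log axis. The points with standard errors are Rnaset2a, Rnaset2b and their sum, and their height carries no meaning. In the liver they sit near 0 (−0.09, −0.13 and −0.10), and in the kidney at 2.08, 1.45 and 1.80, in the upper tail.

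The split of the pair between the genes varied less among the livers than among the kidneys. Fewer fragments give a wider counting error, and a liver had 640.5 to 1011.5 fragments of the pair. An LD kidney had 76.5 to 164 and an ADV kidney 250 to 711.5, and the part of this depth in the spread was not tested. Rnaset2a made up 56.2%, 56.2%, 56.0% and 57.6% of the summed FPKM in the livers of L63, L65, L86 and L104, and 58.5%, 54.1%, 58.0% and 58.2% in those of A75, A91, A94 and A115. The means of 56.5% ± 0.723 (SD, n = 4) and 57.2% ± 2.06 (SD, n = 4) differed by 0.652 percentage points (two-sided exact permutation p = 0.514, where 4 mice against 4 allow no p below 0.0286). The FPKM of Rnaset2a was slightly above that of Rnaset2b in every liver of both conditions.

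In the kidney the share of Rnaset2a was 47.0%, 40.9%, 49.4% and 46.4% in L63, L65, L86 and L104, so that Rnaset2b had the higher FPKM in every LD kidney. It was 57.8% in A75, 49.5% in A91, 53.7% in A94, with 66.8% in A115, with A91 just above the highest LD kidney. The means were 45.9% ± 3.61 (SD, n = 4) in the LD and 56.9% ± 7.40 (SD, n = 4) in the ADV kidneys, and their difference of 11 percentage points was 7.71 without A115. With 35 to 74 fragments of Rnaset2a in an LD kidney, single shares there carry a wide counting error. FPKM also divides by the whole exon length, while stretches of 100 bases with a differing base numbered 143 in Rnaset2a and 166 in Rnaset2b. Which gene had more RNA in the LD kidneys therefore cannot be told from these shares.

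Set side by side within a mouse, the kidney reached a larger part of the liver level in the ADV-conditioned mice. The summed FPKM of the kidney was 12.2% of that of the liver in L63, 15.6% in L65, 22.2% in L86 and 25.4% in L104. In the ADV mice it was 65.7% in A75, 88.2% in A91, 81.0% in A94, with 47.5% in A115. Every mouse had more of the pair in its liver than in its kidney, and the ADV mice were closer to parity. The means were 18.9% ± 6.04 (SD, n = 4) and 70.6% ± 18 (SD, n = 4), and 20.7% and 76.6% with mitochondrial genes taken out of the totals. The organs were deposited as separate tables with separate totals, and no test was made on these ratios. They contain the kidney values that chose the pair, so that they restate the kidney difference beside a liver that changed little.

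**Figure D4:**
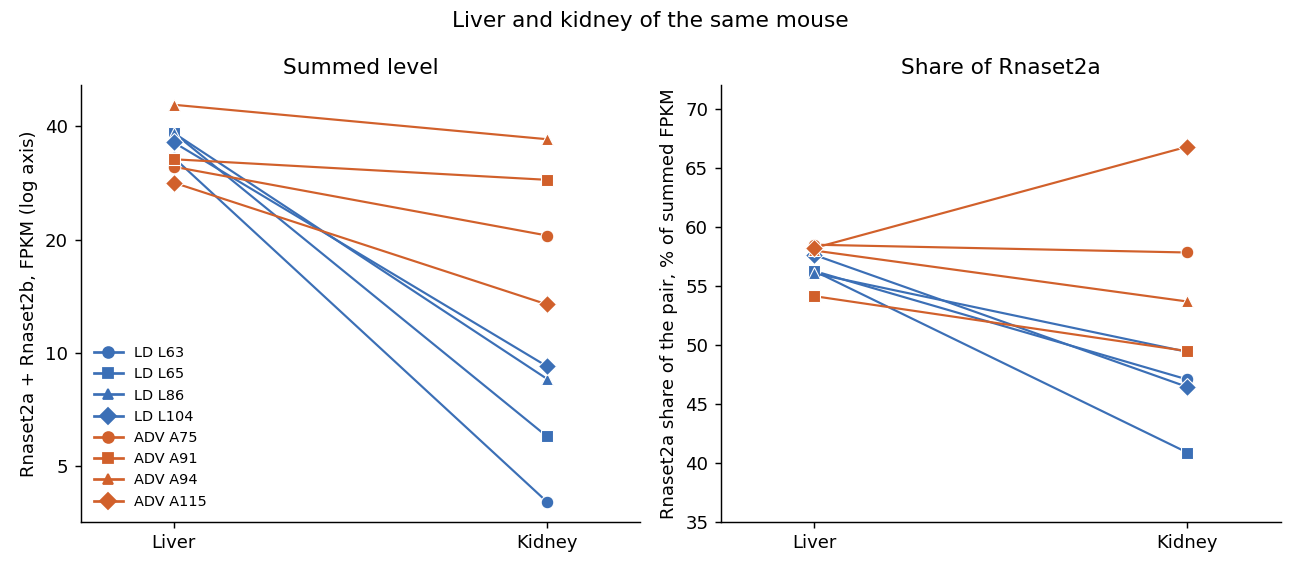
Liver and kidney of each mouse joined by a line, blue for LD and orange for ADV. On the left is the summed FPKM on a log axis, where the LD lines fall to between 12.2% and 25.4% of the liver level and the ADV lines to between 47.5% and 88.2%. On the right is the share of Rnaset2a in percent of the sum, on an axis that does not start at 0.

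Lysosomal nucleases and other lysosomal genes that handle nucleic acids and their products, transporters among them, made a list of 12 genes, of which 11 were tested in each organ. In the kidney, 5 were higher and 6 lower in the ADV condition (46.4% of all genes were higher), with a median log2 difference of −0.01 against −0.02 for all genes, and 0 had an unadjusted p under 0.05 (1.75% of all genes were higher and 1.35% lower by that rule). Dnase2a, the lysosomal endonuclease for DNA, had a log2 difference of −0.01 (standard error 0.56), and Smpdl3a, a lysosomal phosphodiesterase acting on nucleotides, −0.20 (standard error 0.16). Sidt2, a carrier of RNA across the lysosomal membrane, had −0.33 (standard error 0.57), and Pld4, an exonuclease of phagocyte lysosomes, 0.80 (standard error 0.67). Without A115, 8 of the 11 were higher, 7 of them and 0 of the lower ones at an unadjusted p under 0.05 (29.5% of all genes were higher and 7.58% lower by that rule), with a median of 0.44. With median-ratio scaling as well, 3 were higher and 1 lower by that rule, with a median of 0.25. Of all 14475 genes, 2517 were higher and 2707 lower by that rule in this setting, with a median of 0.0094.

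In the liver, 9 of the 11 were higher and 2 lower (65.7% of all genes were higher), with a median log2 difference of 0.18 against 0.096 for all genes, and 3 were higher and 0 lower at an unadjusted p under 0.05 (8.65% of all genes were higher and 3.13% lower). These were the lysosomal acid phosphatase Acp2 (0.48, standard error 0.15, limma adjusted p = 0.326), Smpdl3a (0.26, standard error 0.09, limma adjusted p = 0.366) and Pld4 (1.06, standard error 0.47, limma adjusted p = 0.422). Sidt2 was at −0.31 (standard error 0.14). By median-ratio scaling the split of the list was 7 higher to 4 lower and its median 0.08. Without A94, 10 were tested, and 4 were higher and 1 lower at an unadjusted p under 0.05 (8.8% and 5.66% of all genes), with a median of 0.18.

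The receptors and adaptors that sense nucleic acids in endosomes, some of which read products of RNase T2, were a list of 14 genes. In the kidney all 14 were tested, 13 were higher and 1 lower (46.4% of all genes were higher) with a median log2 difference of 0.30, and 0 had an unadjusted p under 0.05, where 3.1% of all genes did. Tlr7 and Tlr8, receptors of single-stranded RNA, had 0.55 (standard error 0.40) and 0.89 (standard error 0.56). Tlr13, which recognises bacterial ribosomal RNA, had 0.80 (standard error 0.44), and Unc93b1, the chaperone that carries these receptors to endosomes, 0.48 (standard error 0.87). Without A115, 4 of the 14 were higher at an unadjusted p under 0.05 and the median was 0.60, where 29.5% of all genes were higher by that rule and the median of all genes was 0.20. Without A94 the split was 8 to 6 and the median 0.10.

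In the liver 13 were tested, 9 higher and 4 lower (65.7% of all genes were higher) with a median of 0.50, and 4 were higher at an unadjusted p under 0.05 (8.65% of all genes were). These 4 were Tlr3, for double-stranded RNA (0.84, standard error 0.19), Tlr7 (0.82, standard error 0.32), Tlr8 (1.01, standard error 0.37) and Tlr13 (0.65, standard error 0.26), with limma adjusted p between 0.29 and 0.393. Tlr3 was at 1.05 ± 0.0806 FPKM (SD, n = 4) in the LD and 2.0 ± 0.554 FPKM (SD, n = 4) in the ADV livers. Without A94 the split was 7 higher to 6 lower, 3 were higher and 1 lower at an unadjusted p under 0.05 (8.8% and 5.66% of all genes), and the median was 0.12.

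Secreted ribonucleases of the RNase A family with their inhibitor made a list of 14 genes, of which 6 were tested in each organ. Rnase4, a secreted liver ribonuclease, was at 693 ± 79.7 FPKM (SD, n = 4) in the LD and 791 ± 192 FPKM (SD, n = 4) in the ADV livers, and at 9.31 ± 2.30 and 12.7 ± 4.13 FPKM (SD, n = 4 each) in the kidneys. Its log2 difference was 0.17 (standard error 0.18) in the liver and 0.40 (standard error 0.29) in the kidney. Angiogenin, Ang, had 0.05 (standard error 0.20) and 0.62 (standard error 0.44), and Rnh1, the cytosolic inhibitor of this family, 0.10 (standard error 0.12) and −0.08 (standard error 0.62). In the liver 6 of the 6 were higher and in the kidney 5, and 0 had an unadjusted p under 0.05 in either organ by limma (3.1% of all kidney and 11.8% of all liver genes had one). Without A115, 2 of 6 in the kidney were higher by that rule, where 29.5% of all genes were. Without A94, 3 of 5 were higher in the liver and 2 of 5 in the kidney. Ang2, Ang4 and Ear10 were listed at 0 in all libraries. Members such as Ear2, Rnase2a and Rnase2b are close copies of each other, so that their reads may be split.

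Of 16 other RNA-degrading enzymes, 2 in the kidney had an unadjusted p under 0.05 by limma, 1 higher and 1 lower (3.1% of all genes had one). Without A115, 5 were higher and 1 lower by that rule, where 37.1% of all genes passed it. Dis3l, a catalytic subunit of the cytoplasmic exosome, had a log2 difference of −0.29 (standard error 0.12), from 10.2 ± 0.509 to 8.3 ± 0.189 FPKM (SD, n = 4 each). Endou, an endoribonuclease that cuts at uridines, was higher by 0.56 (standard error 0.22), from 0.656 ± 0.141 to 1.01 ± 0.168 FPKM (SD, n = 4 each). The limma adjusted p was 1 for both, and by median-ratio scaling neither had an unadjusted p under 0.05. In the liver, Rnaseh2c, a subunit of RNase H2, had a log2 difference of 0.24 (standard error 0.09, limma adjusted p = 0.384). The median of the 16 was 0.03 in the kidney and 0.10 in the liver, and −0.04 in the liver under quantile normalization, with 6 higher and 10 lower.

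The 36 lysosomal hydrolases were split 14 higher to 22 lower in the kidney, with a median of −0.03, and 25 higher to 11 lower in the liver, with a median of 0.11, where 46.4% of all kidney genes and 65.7% of all liver genes were higher. In the kidney 1 had an unadjusted p under 0.05 (3.1% of all genes did), the acid lipase Lipa, at 130 ± 18.4 FPKM (SD, n = 4) in the LD and 96.5 ± 19.3 FPKM (SD, n = 4) in the ADV condition (log2 difference −0.44, standard error 0.19, limma adjusted p = 1). The liver had 4, all higher (8.65% of all genes were higher by that rule), namely the cathepsins Ctsb (0.36) and Ctss (0.98), the alpha-galactosidase Gla (0.43) and the ganglioside activator Gm2a (0.36), with limma adjusted p between 0.398 and 0.422. Without A115, the kidney split was 30 higher to 6 lower, and 18 were higher and 1 lower at an unadjusted p under 0.05 (29.5% and 7.58% of all genes). Without A94, the liver split was 18 to 18, and without A94 in the kidney 7 to 29. Of the 4 TFE family regulators, which drive lysosomal genes, 0 in the kidney and 1 in the liver had an unadjusted p under 0.05, where 3.1% and 11.8% of all genes did. The latter was Tfec (1.11, standard error 0.35, limma adjusted p = 0.342).

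Markers of macrophages, which degrade engulfed RNA in their lysosomes, were followed beside the pair in each library. In the kidney, the 14 markers summed to 76.6 FPKM in L63, 107 in L65, 242 in L86 and 94.5 in L104, and to 332 in A75, 106 in A91, 705 in A94, with 84.2 in A115. The pair stood at 4.02, 6.00, 8.54 and 9.22 FPKM in the kidneys of L63, L65, L86 and L104. In those of A75, A91, A94 and A115 it stood at 20.5, 28.8, 37.0 and 13.5 FPKM. Of the 14, 10 were tested, all 10 were higher and 0 had an unadjusted p under 0.05, where 3.1% of all genes did (median log2 difference 0.86, and 7 of 9 higher without A94). Without A115, 5 of 10 were higher by that rule, where 29.5% of all genes were. Clec4f, the marker of Kupffer cells, was listed at 0. In the liver the same markers summed to between 242 and 347 FPKM in the LD mice and to 425, 343, 1045 and 370 FPKM in A75, A91, A94 and A115. All 14 were higher there, 9 with an unadjusted p under 0.05 where 8.65% of all genes were (14 and 11 without A94, where 8.8% were), led by the scavenger receptor Cd163 (1.29, standard error 0.33), the mannose receptor Mrc1 (0.51, standard error 0.14), Vsig4 (0.89) and Adgre1 (0.78), with limma adjusted p between 0.296 and 0.349. A94 was highest for the macrophage sum in both organs and, by FPKM, for the pair in both. By median-ratio scaling its liver sum of the pair was 37.7 FPKM, below L65 at 39.3 and L86 at 39.6.

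Fibroblast and stellate cell markers were higher in 8 of 8 genes in each organ, with 3 in the kidney and 6 in the liver at an unadjusted p under 0.05 (1.75% of all kidney genes and 8.65% of all liver genes were higher by that rule). In the kidney these were the collagens Col1a1 (1.88), Col1a2 (1.26) and Col3a1 (2.14), each with a limma adjusted p of 1, and in the liver they were led by the proteoglycan Dcn (0.65, standard error 0.12, limma adjusted p = 0.234), followed by smooth muscle actin Acta2 (2.19), lumican Lum (1.24) and Col1a1 (2.19), with limma adjusted p between 0.31 and 0.385. They summed to between 53.2 and 93.6 FPKM in the LD kidneys and to 180, 68.0, 184 and 144 FPKM in A75, A91, A94 and A115. The 7 tested B and plasma cell markers were all higher in both organs and 0 had an unadjusted p under 0.05. Their sum was between 32.4 and 47.7 FPKM in the LD kidneys and 61.1, 48.2, 547 and 13.2 FPKM in A75, A91, A94 and A115. In the liver it was between 5.25 and 10.4 FPKM in the LD mice and 14.2, 18.6, 697 and 6.01 FPKM in the same ADV mice, so that A94 stood far above the others in both organs. Without A94, 1 of 6 tested was higher in the kidney and 5 of 5 in the liver. T and NK cell markers summed to between 3.93 and 7.57 FPKM in the LD kidneys and to 9.36, 5.0, 41.7 and 6.77 FPKM in A75, A91, A94 and A115, with 7 of 7 tested higher and 4 of 6 without A94. Proximal tubule markers were lower in 8 of 8 in the kidney, with sums of 20096, 32026, 23032 and 46648 FPKM in A75, A91, A94 and A115 against 28952 to 41973 FPKM in the LD kidneys (0 of 8 with an unadjusted p under 0.05, and 4 higher and 4 lower without A115). Most of this sum is Kap, an androgen-regulated kidney protein, with 45922 FPKM in A115. A115 was highest for Kap and Slc5a12 and lowest of all kidneys for the other 6, among them Slc34a1 at 154 FPKM (801 to 1553 in the others), Miox at 259 FPKM (1188 to 1764) and Slc5a2 at 7.51 FPKM (62.2 to 150). In the kidney 4 of 4 neutrophil, 3 of 8 distal nephron, 1 of 5 podocyte, 4 of 6 endothelial and 1 of 5 hepatocyte genes tested were higher, and 0 of them had an unadjusted p under 0.05. In the liver, 2 of 9 T and NK cell genes were higher by that rule (8.65% of all genes were), Klrb1c (0.75, limma adjusted p = 0.37) and Cd3g (1.44, limma adjusted p = 0.395). The T and NK cell markers summed to 3.80, 4.11, 28.8 and 3.08 FPKM in the livers of A75, A91, A94 and A115. In the LD livers they summed to between 2.32 and 4.15 FPKM. By the same rule 1 hepatocyte gene, the liver transcription factor Hnf4a, was lower (−0.42, standard error 0.16, limma adjusted p = 0.378), where 3.13% of all liver genes were. The part of these cell types in the level of the pair was not tested.

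Genes whose left end lay within 500 kb of that of either copy were examined next. There were 18 near Rnaset2a and 19 near Rnaset2b, of which 7 and 6 were tested in the kidney. Their kidney log2 differences lay between −0.40 and 0.42 around Rnaset2a and between −0.24 and 0.12 around Rnaset2b, and 0 had an unadjusted p under 0.05, where 3.1% of all genes did. The closest tested gene to Rnaset2b was Tagap1, a GTPase-activating protein, at −0.15 (standard error 0.22), and the closest to Rnaset2a was Fgfr1op, a centrosomal protein, at 0.05 (standard error 0.15). The intervals hold other genes with a copy in each, Rsph3a and Rsph3b, for a radial spoke protein, and Tagap and Tagap1. In the kidney Rsph3a was at −0.02 (standard error 0.45), Rsph3b at −0.14 (standard error 0.30) and Tagap at 0.42 (standard error 0.42). The other tested neighbours in the kidney were Fndc1 (0.23), Mpc1 (−0.25), Sft2d1 (0.06) and Pde10a (−0.40) near Rnaset2a, and Dynlt1f (−0.24), Sytl3 (−0.12), Ezr (0.12) and Rps6ka2 (−0.01) near Rnaset2b. In the liver 6 and 6 were tested, Gm9992 among them, and 1 had an unadjusted p under 0.05, where 11.8% of all genes did. This was Ezr, which links membranes to actin (0.85, standard error 0.33, limma adjusted p = 0.385).

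**Figure D5:**
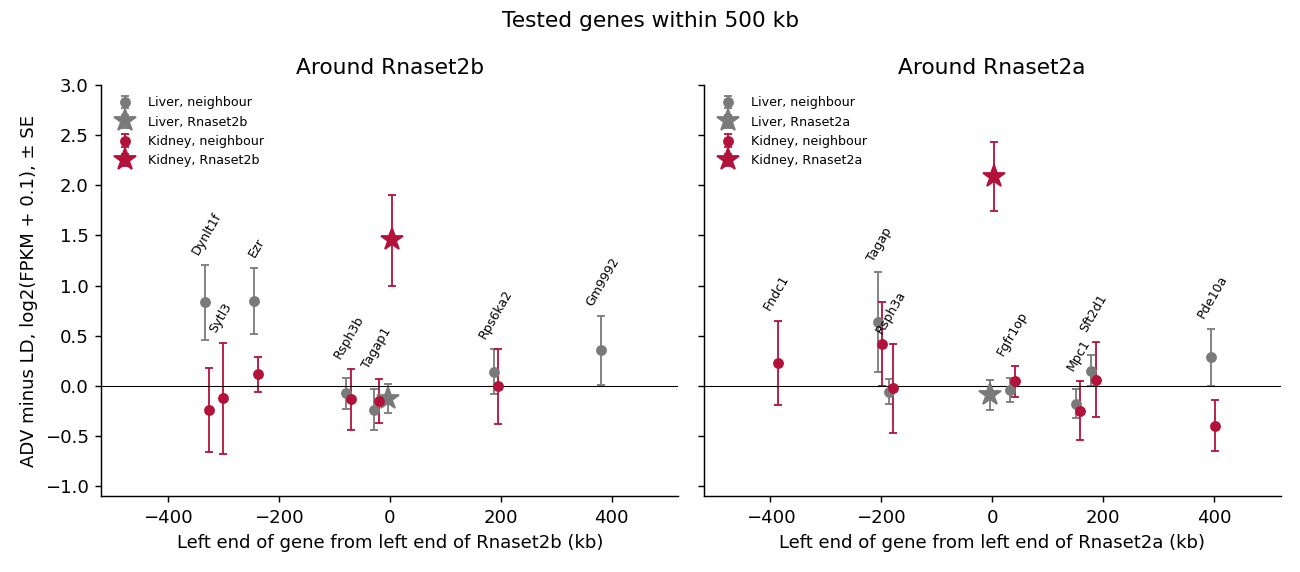
ADV minus LD difference on the log2(FPKM + 0.1) scale, with standard errors, of the tested genes around Rnaset2b (left) and Rnaset2a (right), against the distance between the left ends of the genes in kb. Red is kidney, grey is liver and the stars are the pair. The kidney stars are at 1.45 and 2.08, and the red neighbours lie between −0.40 and 0.42.

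The levels of the paralogs followed each other across libraries. With the organ mean subtracted, the Pearson correlation of their log2 values over the 16 libraries was 0.928, and with the mean of each organ and condition subtracted it was 0.89. These libraries come from 8 mice and the genes are nearly identical in sequence, so that the values are descriptive. The value of 0.928 also contains the kidney difference that chose both genes, and nothing is read from its height. Among 12319 genes tested in both organs, those most like the log2 sum with the organ mean subtracted were Acbd6 (r = 0.934), Trp53rkb (0.888), Emg1 (0.853), Bloc1s4 (0.849), Tpbgl (0.841) and Exosc6 (0.825). Since this measure contains the kidney difference that chose the pair, genes that differ there are favoured.

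Acbd6, an acyl-CoA binding protein, was at 8.48, 8.08, 9.36 and 8.90 FPKM in the kidneys of L63, L65, L86 and L104. In the kidneys of A75, A91, A94 and A115 it was at 13.1, 15.4, 18.5 and 9.996 FPKM, above all LD kidneys, with the ADV mice in the same order as for the pair and the LD mice in another. Its log2 difference was 0.67 in the kidney and 0.00 in the liver. With the mean of each organ and condition subtracted, so that only the spread within groups counts, the leading genes were 2010107E04Rik (r = 0.928), Ap4s1 (0.922), H2-Q10 (0.91), Tmed2 (0.908), Tob2 (0.902) and Cops9 (0.887). In each of these, A94 was highest of the ADV mice in both organs and A115 lowest of the ADV kidneys. For 2010107E04Rik these kidneys were at 312 and 147 FPKM. The values are not scaled between libraries, and the part of A94 and A115 in these correlations was not tested.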

How the data were processed

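Livers and kidneys of 8 mice gave 16 libraries of poly(A)-selected, paired-end RNA. The authors trimmed adaptors with Trimmomatic, mapped reads with STAR (2.5.4b in the submitters' processing notes) to mm10, dropped those with a mapping quality under 10 with SAMtools, and counted exons of UCSC known canonical genes with Homer. The values deposited by the authors are FPKM, scaled to each library's own total, with no scaling between libraries. FPKM times exon length times total came out in steps of 0.5 fragment, and fragments were recovered in this way. Reads were not analysed here.

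Values were compared as log2(FPKM + 0.1) with limma 3.58.1 (R 4.3.3, trended eBayes, Benjamini-Hochberg) in each organ apart, over genes with a mean CPM of recovered fragments above 0.5. Single values had exact permutation tests over 70 assignments of the mice. On simulated data with 200 genes shifted by 1.5 on the log2 scale, 159 were found in the liver and 94 in the kidney, with 6 and 2 others. Liver and kidney of a mouse share its number and were taken as a pair. The correlation of their deviations across genes was 0.147, 0.117, 0.185, 0.0982, −0.0242, 0.334, 0.553 and 0.0423 for L63, L65, L86, L104, A75, A91, A94 and A115. The members, the 16 gene lists, written from general knowledge, and the tests were chosen with earlier results of these data known. Genes were named if they were a member, a tested neighbour within 500 kb, among up to 4 genes of a list with the smallest unadjusted p under 0.05, one of a list whose role is described, or one of the 6 most correlated with the pair. Genes next to a member in the kidney order by p were also to be named and are left out, since the kidney values chose the members. The deposited exon length is 1 base short per exon (953 and 1004 for models of 962 and 1013 bases). Protein sequences were not used here, and 1 gene of a list is not reported here by name.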

Additional observations from a re-analysis of the deposited data

Results flagged for a closer look

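In 2 groups of 4 mice, 1 liver stood apart in the share of Rnaset2a in the summed FPKM, with a gap to the nearest of the others that exceeded Dixon's 95% critical value as a part of the group's range. Among the ADV livers, A91 was lowest at 54.1%, where the other 3 lay between 58% and 58.5%. Among the LD livers, L104 was highest at 57.6%, where the other 3 lay between 56% and 56.2%. By chance about 1 group in 20 has such a mouse, and 16 groups of values were examined. The shares of A91 and L104 rest on 738.5 and 865.5 fragments of the pair, and their counting error was not examined. Without A91 the difference in the share between conditions was 1.68 percentage points (exact permutation p = 0.0571), and without L104 it was 1.01 percentage points (exact permutation p = 0.514). Each mouse was left out for the value that is compared, so that nothing is read from these p-values.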

How the results depend on the processing

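The liver differences of Rnaset2a, Rnaset2b and their sum stayed below 0 and past no threshold in all 20 alternatives, from −0.24 to −0.01, from −0.26 to −0.03 and from −0.25 to −0.02 on the log2 scale, with limma adjusted p between 0.243 and 1. The difference in the liver share of Rnaset2a stayed between 0.225 and 1.68 percentage points, and 0.658 from recovered fragments. In the kidney, where the pair was described and not tested, the 21 alternatives gave 1.80 to 2.46 for Rnaset2a, 1.19 to 1.97 for Rnaset2b and 1.57 to 2.23 for the sum, within 1 SD of the mice around the value reported. The highest of each came with array weights. With both organs in 1 fit and the mouse as replicate block, the liver adjusted p of all 3 was 1 and the log2 differences were −0.09, −0.13 and −0.10, the kidney log2 differences were 2.08, 1.45 and 1.80, and 2 kidney genes and 1 liver gene passed an adjusted p of 0.05, the same counts as in 1 fit without the block. The block changed no call of the pair. The count of liver genes at that threshold, 1, became 6 when low genes were kept and 3 with array weights, and ranged from 0 (without L65, L104 or A75) to 9 (without A91) when 1 mouse was left out. The kidney count, 0, became 2439 with array weights, ranged from 0 to 2724 (without A115) when 1 mouse was left out, and was 2309 without A115 and with median-ratio scaling, an alternative added once the values were known. The cause was not tested. Genes of the lists with an unadjusted p under 0.05 numbered 32 in the liver, where the count was 13 without L65, 17 without L63, 18 without L104, 14 with both organs in 1 fit and 17 with the block. They numbered 6 in the kidney, where the count was 84 with array weights, 64 without A115, 55 without A115 and with median-ratio scaling, 14 without A91, 3 without L65, 2 without L63 or A94 and 1 without A75. Scaling moved the median of all liver genes from 0.096 to −0.00 (median ratio) and −0.03 (quantile), and the share of genes higher among those at an unadjusted p under 0.05 from 1110 of 1512 to 795 of 1731 and 638 of 1626. The pair's liver differences were −0.19, −0.23 and −0.21 (Rnaset2a, Rnaset2b, sum) by median ratio. The depth of the LD kidneys, with 76.5 to 164 fragments of the pair, limits how well the split between the genes is known there.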
